A study of Mus musculus with 56 samples.

Results

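The genes described here encode the translation initiation factors of the mouse, the proteins that bring the ribosome to the start codon of an mRNA. They were taken as every protein-coding gene in the expression table with a symbol from Eif1 to Eif6, without the eIF4E-binding proteins (Eif4ebp genes) and without pseudogenes. This gave 52 of the 19072 genes. The tissue was the gastrocnemius of the calf, from C57BL/6J females 9 weeks old kept under 12 h light and 12 h dark, and polyadenylated RNA was sequenced. After 7 days with food at all times, the mice had 7 further days in which food was given by day (daytime-restricted feeding, DRF) or by night (nighttime-restricted feeding, NRF). The labels do not give the hours of food access, so feeding phases below are taken as the light phase in DRF and the dark phase in NRF. Tissue was taken at zeitgeber times (ZT, hours after lights on) 0, 4, 8, 12, 16, 20 and 24, with 4 libraries at each time in DRF and 4 in NRF, 56 in all. Mice with free access to food throughout were not analysed here, so each regimen is known here only against the other. The labels number the libraries but do not say that each came from its own animal, so p-values measure the spread between libraries.

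Initiation starts when eIF4E binds the cap of an mRNA and, together with the scaffold eIF4G and the RNA helicase eIF4A, loads it on a small ribosomal subunit that carries eIF3, eIF1, eIF1A, eIF5 and the initiator tRNA held by eIF2. Once eIF2 has spent its GTP, eIF2B reloads it, and the eIF2α kinases stop that exchange under stress. In skeletal muscle, feeding raises protein synthesis within a meal, in large part through insulin, amino acids and the mTOR kinase, which act on the initiation proteins by phosphorylation. The transcript levels below say nothing of that phosphorylation.

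Levels are CPM, recovered counts per 1000000 of the library size, with counts and size both taken from the authors' deposited scores. The recovered counts summed to 28172991 to 36183392 reads per library, and the size that the scores imply was 0.854 to 1.21 times that total. Of the 52 genes, 50 had a mean of at least 1 CPM and were tested among 12024 genes. The 2 that did not pass were Eif2s3y, the Y-linked copy of the eIF2 γ subunit, with a mean of 1.71 reads per library in these females, and the oocyte cap-binding gene Eif4e1b, with 0.839 reads. The library DRF ZT20 replicate 1 stood apart, with an SD of its deviations from the group means of 0.469 on the log2 scale, against 0.138 to 0.321 in the others. The tissue label was checked on markers. The 10 markers of muscle fibres, among them Ckm, Acta1 and Myh4, summed to 129200 to 278000 CPM in DRF libraries and 118400 to 236500 CPM in NRF libraries. Fibroblast markers summed to 1113 to 3071 CPM in DRF and 913.6 to 4742 CPM in NRF, slow fibre markers to 66.8 to 4510 CPM in DRF and 126 to 4684 CPM in NRF, and satellite cell markers to 28.9 to 38.9 CPM in DRF and 25.6 to 42.3 CPM in NRF. In DRF 7 of the 10 muscle fibre markers and 6 of 7 endothelial markers were themselves rhythmic, where 48.7% of all genes tested were. In NRF 0 and 5 of these were, where 15.1% of all genes were. In DRF 2 of 7 fibroblast, 2 of 7 immune and 2 of 5 satellite cell markers were rhythmic, and in NRF 1, 0 and 1. For adipocytes 0 of 7 were in DRF and 2 in NRF, and for slow fibres, red blood cells and nerve 0 in either regimen. The part of the markers in the rhythms below was not tested. Because whole muscle was measured, fewer cells of a type and less RNA per cell cannot be told apart.

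Per kilobase of the length that the scores imply, Eif1, which encodes eIF1, had the most abundant transcript, with 258 CPM per kb, followed by Eif5a with 152 CPM per kb. The scaffolds Eif4g2 (97.0 CPM per kb) and Eif4g1 (94.7 CPM per kb) and the eIF3 subunit gene Eif3h (91.0 CPM per kb) came next. Among paralogs, Eif4a2 (73.8 CPM per kb) stood above Eif4a1 (23.6 CPM per kb), Eif4e (19.3 CPM per kb) above Eif4e2 (7.75 CPM per kb), and Eif5a far above Eif5a2 (0.355 CPM per kb). The eIF2α kinase genes had low levels except Eif2ak1, the heme-regulated kinase, with 12.1 CPM per kb. The other 3 kinase genes lay between 0.849 and 1.02 CPM per kb. Counts of Eif1, Eif5a, Eif5b, Eif3j1, Eif3j2, Eif2ak2 and Eif4g2 were not whole in part or all of the libraries, as when a read is shared out between copies, and their values are less certain. Strand was not marked in these libraries, and 25 of the 52 genes overlap another annotated gene, whose reads cannot be told apart there. Among the 25 are Eif4a1, which overlaps LOC115487878, Gm25835 and LOC115487892, and Eif3a, which overlaps Mir3084-2 and Snora19.

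A daily rhythm was fitted to each gene as a 24 h cosine, and its size is given as the fitted distance from trough to peak in log2 units of CPM + 1. In DRF muscle 26 of the 50 genes were rhythmic at an adjusted p under 0.05 (limma, moderated F test), where 48.7% of all genes tested were. In NRF muscle 1 of 50 was rhythmic, Eif4a1, where 15.1% of all genes were. The median peak-to-trough of the 50 genes was 0.217 in DRF and 0.122 in NRF, and that of all genes 0.263 in DRF and 0.161 in NRF. The DRF count of the family was near the share of all genes, so rhythmicity in DRF is not particular to it. The rhythms were small, the largest being 0.66, in Eif3a in DRF. Without the library that stood apart, 22 of the 50 were rhythmic in DRF and 1 in NRF. The difference between the regimens was itself past the threshold at equal clock time in 2 of 50 genes, Eif4a1 and Eif3a, where 13.1% of all genes were, and both had the larger rhythm in DRF, as 9.06% of all genes did.

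**Figure D1:**
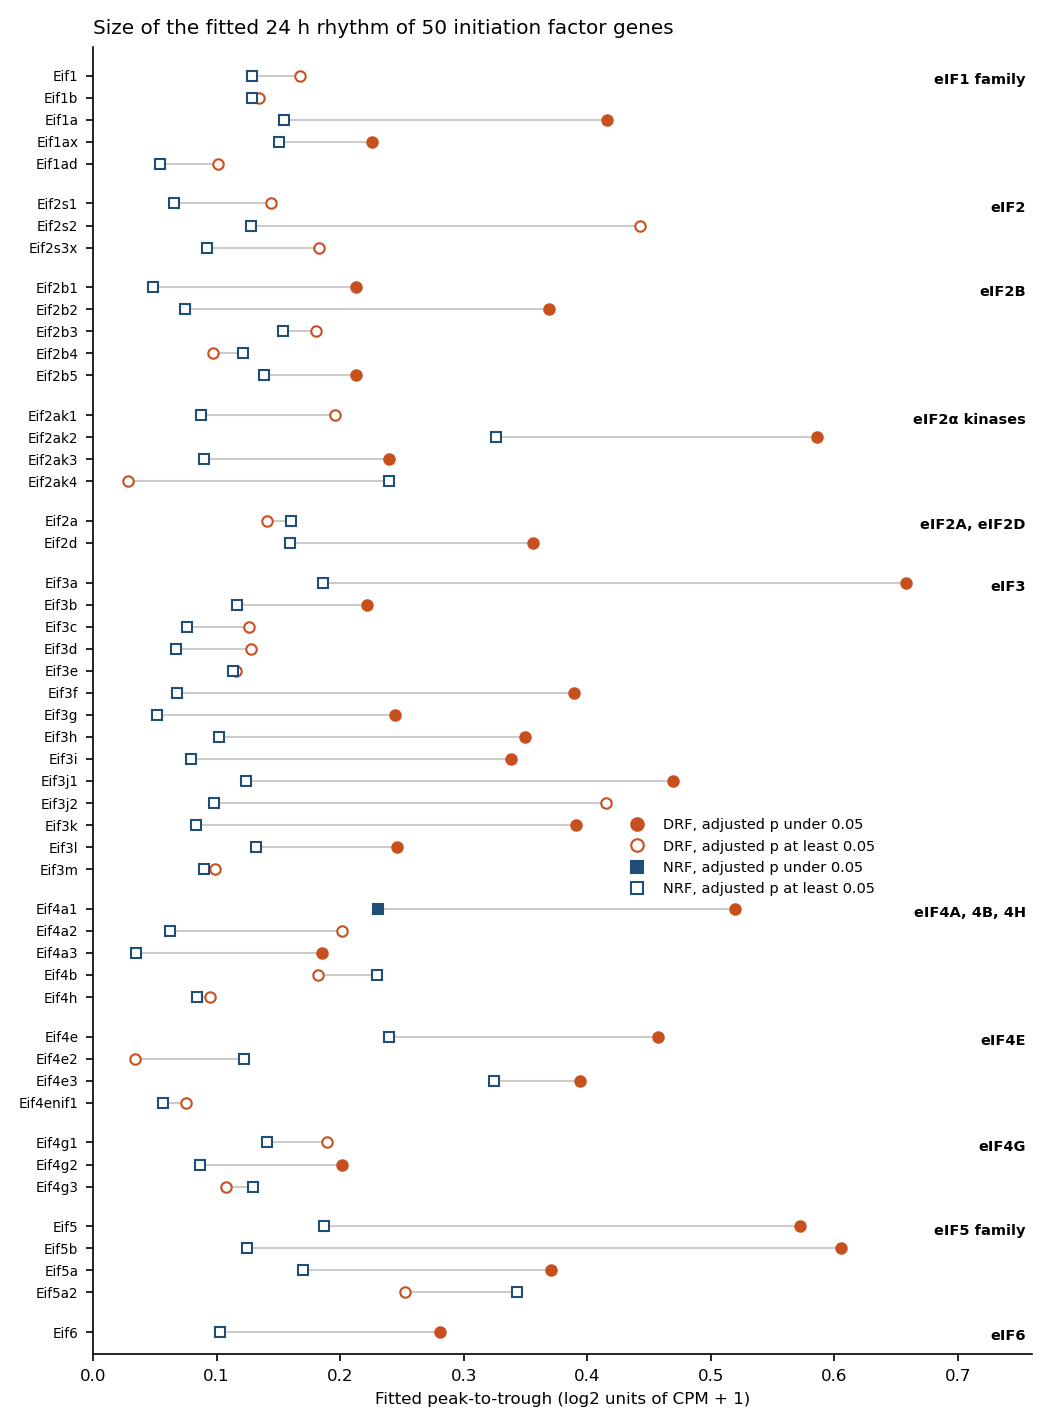
Fitted trough-to-peak size of the 24 h rhythm (x axis, log2 units of CPM + 1) of each of the 50 genes, by complex, in DRF (circles) and NRF (squares). Filled symbols are rhythmic at an adjusted p under 0.05: 26 in DRF and 1, Eif4a1, in NRF.

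Eif4a1 (Entrez gene 13681, chr11:69666936-69672423 on GRCm38.p6) encodes the RNA helicase eIF4A1, which unwinds the leader of capped mRNAs, and its DRF rhythm had the lowest adjusted p of the family. In DRF it had 125, 109, 126 and 119 CPM at ZT4 and 133, 118, 134 and 133 CPM at ZT8, against 96.3, 91.0, 88.1 and 89.8 CPM at ZT4 and 97.6, 98.1, 97.5 and 91.9 CPM at ZT8 in NRF. At both times every DRF library was above every NRF library. At ZT16 the order was the other way, with 80.4, 92.1, 103 and 91.2 CPM in DRF and 104, 111, 102 and 113 CPM in NRF, and here the groups overlapped by 1 library on each side. At the other times the mean was 95.0 CPM (ZT0), 104 CPM (ZT12), 91.5 CPM (ZT20) and 101 CPM (ZT24) in DRF, and 101 CPM (ZT0), 112 CPM (ZT12), 98.6 CPM (ZT20) and 93.9 CPM (ZT24) in NRF, with overlapping libraries.

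The fitted rhythm of Eif4a1 was 0.52 with a peak at ZT6.84 in DRF (adjusted p = 6.5e-09) and 0.23 with a peak at ZT14.8 in NRF (adjusted p = 0.0060). These curves differed at equal clock time (limma, adjusted p = 8.9e-07) and also when the NRF curve was moved by 12 h to line up the feeding phases (adjusted p = 3.8e-05). The gene was thus apart between the regimens on both time axes, and the fitted peak fell in the light phase in DRF and in the dark phase in NRF. It was higher in DRF by 0.38 ± 0.07 at ZT4 and by 0.42 ± 0.07 at ZT8, and lower by 0.23 ± 0.07 at ZT16 (log2, SE, adjusted p = 0.0014, 7.6e-04 and 0.026, limma). When libraries were scaled by their total reads, the DRF rhythm was 0.68, and the NRF rhythm was 0.15 with an adjusted p of 0.51, so the NRF call rests on the scaling, as do the calls at ZT4 and ZT8, which were lost.

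**Figure D2:**
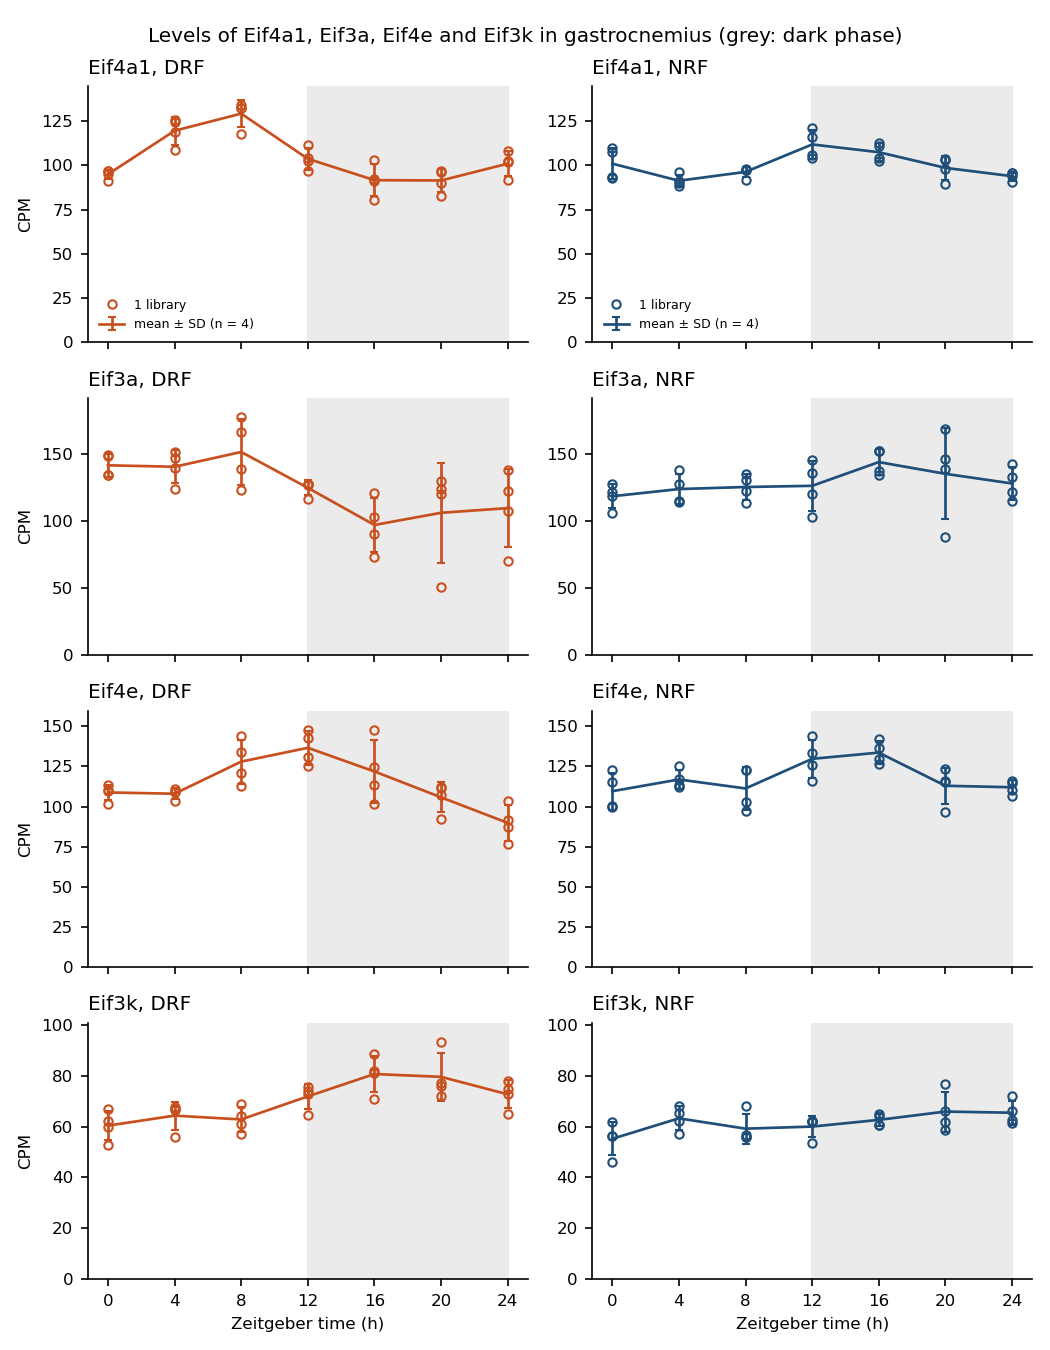
CPM of Eif4a1, Eif3a, Eif4e and Eif3k (y axes, from 0) by zeitgeber time in hours in DRF (left) and NRF (right), with points for libraries and lines for the mean ± SD of 4, and the dark phase in grey. Eif4a1 is highest at ZT8 in DRF and at ZT12 in NRF, and Eif3k is higher in DRF than in NRF at ZT16 in every library.

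The other helicase and cofactor genes moved less. Eif4a3, which anchors the exon junction complex rather than initiation, had a rhythm of 0.18 in DRF with a peak at ZT4.75 (adjusted p = 0.015). Eif4a2, the main eIF4A gene of this muscle by level, had 0.20 in DRF with a peak at ZT6.05 but did not pass (adjusted p = 0.087). Eif4b and Eif4h, which stimulate the helicase, had 0.18 and 0.095 in DRF with adjusted p of 0.27 and 0.17.

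The rhythmic genes differed in the time of their DRF peak. Of the 26, 11 peaked in the light phase and 15 in the dark phase. Among all genes rhythmic in DRF, 52.4% peaked in the light phase. The light-phase genes had the larger rhythms, with a median of 0.47 against 0.34 in the dark-phase genes, and they were longer, with a median length of 5266 bases against 2698 bases. Over all genes rhythmic in DRF the medians were 0.42 and 5785 bases for light-phase peaks and 0.34 and 3805.5 bases for dark-phase peaks. These medians include the library that stood apart. Without it the light-phase genes Eif3a (0.66), Eif5b (0.61), Eif2ak2 (0.59) and Eif1a (0.42) had 0.50, 0.48, 0.48 and 0.34. Eif4e and Eif4g2 (0.46 and 0.20) had 0.44 and 0.17, and Eif4a1 (0.52) had 0.54. The dark-phase genes Eif3k, Eif2b2, Eif2d and Eif6 (0.39, 0.37, 0.36 and 0.28) had 0.35, 0.37, 0.35 and 0.26. The medians without it were not computed.

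**Figure D3:**
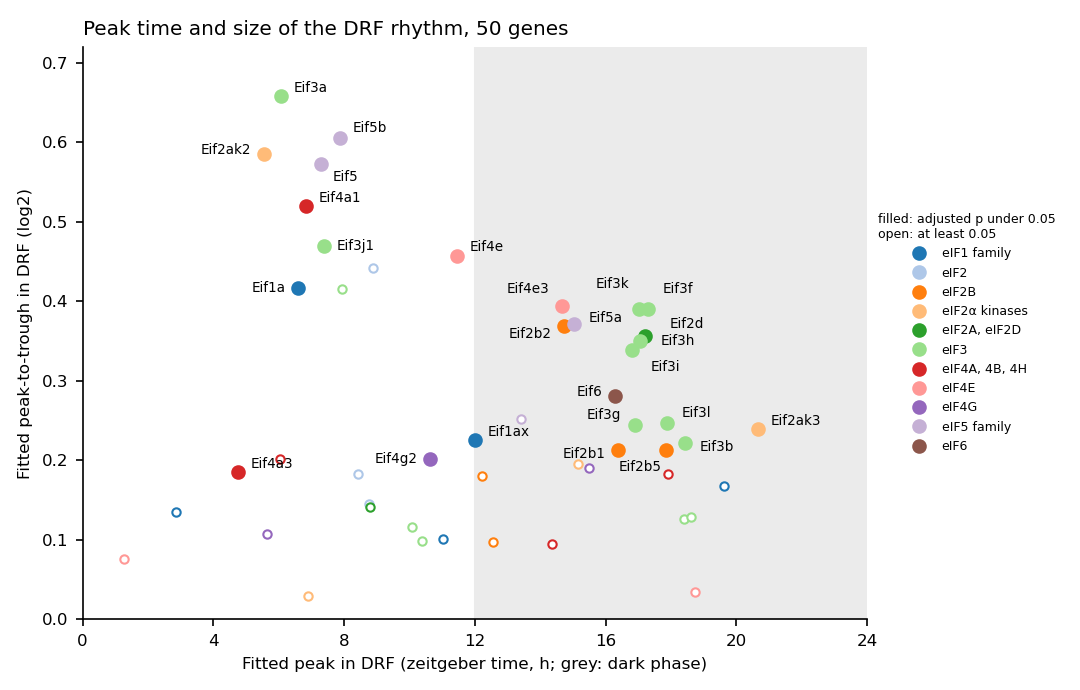
Fitted peak time in DRF (x axis, zeitgeber time in hours, dark phase in grey) against the fitted trough-to-peak size (y axis, log2) of the 50 genes, coloured by complex. Of the filled points, with an adjusted p under 0.05, 11 lie in the light phase and 15 in the dark phase, 7 of these being eIF3 subunits.

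Transcript length and library scaling moved with these times of day, so both were measured. The mean rank correlation of a library's deviations with gene length was between 0.0077 and 0.12 from ZT0 to ZT8 in DRF and between -0.20 and -0.13 from ZT12 to ZT24. In NRF it was 0.070 to 0.19 from ZT0 to ZT20 and -0.013 at ZT24. With that length trend removed, 27 genes were rhythmic in DRF, 22 of them among the 26 (Eif2b1, Eif2b5, Eif3g and Eif4e3 were lost). Of the 11 light-phase genes 9 were still rhythmic with a light-phase peak, and of the 15 dark-phase genes 11 with a dark-phase peak. With libraries scaled by total reads, 30 genes were rhythmic, 19 of them among the 26. All 11 light-phase genes were kept there with light-phase peaks, whereas 8 of the 15 dark-phase genes were kept, and over all genes 84.7% of DRF rhythms then peaked in the light phase. Total scaling moves all genes together, since the implied size over the total was 1.05 at ZT0 and 0.902 at ZT16 in DRF, so the genes kept or lost under it say nothing particular to the family. The DRF calls it ended were those of Eif2b1, Eif2b5, Eif2ak3, Eif3g, Eif3l, Eif4e3 and Eif6.

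The eIF3 complex, the largest factor and the platform on the small ribosomal subunit, had 9 of its 14 genes rhythmic in DRF (limma), where 48.7% of all genes were. In NRF 0 of 14 were rhythmic, where 15.1% of all genes were. At an unadjusted p under 0.05 there were also 0 in NRF, against 3161 of all 12024 genes. The rhythm difference at equal clock time passed in 1 of the 14, Eif3a. With total scaling Eif3g and Eif3l lost the DRF call (adjusted p = 0.47 and 0.14). The subunit genes did not peak together. Eif3a, the largest subunit and the scaffold of the complex, and Eif3j1, which encodes a loosely held subunit, peaked at ZT6.06 and ZT7.40, while Eif3b, Eif3f, Eif3g, Eif3h, Eif3i, Eif3k and Eif3l peaked between ZT16.8 and ZT18.4. The remaining genes Eif3c, Eif3d, Eif3e, Eif3j2 and Eif3m did not pass, with peak-to-trough values of 0.098 to 0.42. Genes of a single complex thus peaked in opposite phases of the day in the same libraries.

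Eif3a (Entrez gene 13669, chr19:60761116-60790693) had 149.7, 149, 134 and 134 CPM at ZT0 and 139, 167, 123 and 178 CPM at ZT8 in DRF, against 106, 127, 122 and 119 CPM at ZT0 and 123, 135, 130.5 and 114 CPM at ZT8 in NRF. Neither difference was called (limma, adjusted p = 0.63 at ZT0 and 0.93 at ZT8). At ZT16 it had 103, 90.7, 73.3 and 121 CPM in DRF and 137, 135, 152 and 153 CPM in NRF, every DRF library being below every NRF library. The fitted rhythm was 0.66 in DRF (adjusted p = 0.0020) and 0.19 in NRF (adjusted p = 0.69), and the curves differed at equal clock time (adjusted p = 0.017, limma). At ZT20 in DRF it had 50.3, 124, 129.7 and 121 CPM, the lowest being the library that stood apart. Without that library the DRF rhythm of Eif3a was 0.50 (adjusted p = 0.0083) and the difference stayed past the threshold (adjusted p = 0.026).

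Eif3k (Entrez gene 73830, chr7:28971372-28981890), a small peripheral subunit, showed the opposite course. It had 66.8, 60.0, 52.8 and 62.2 CPM at ZT0 and 81.3, 82.0, 88.6 and 71.0 CPM at ZT16 in DRF, against 56.4, 46.2, 61.9 and 56.4 CPM at ZT0 and 60.5, 60.7, 64.4 and 65.1 CPM at ZT16 in NRF. The groups overlapped at ZT0 and were apart at ZT16, where Eif3k was higher in DRF by 0.36 ± 0.09 (log2, SE, adjusted p = 0.017, limma). Its DRF rhythm was 0.39 with a peak at ZT17.0 (adjusted p = 7.0e-04), while its NRF rhythm was 0.084 (adjusted p = 0.78). The test of the difference between these rhythms did not pass at equal clock time (adjusted p = 0.12), so a larger DRF rhythm of Eif3k was not shown by that test.

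The promoters of these genes are of interest because the letters CACGTG (the E-box, bound by the clock proteins CLOCK and BMAL1 and by MYC) are a known element of rhythmic genes. RefSeq windows of 300 bases, from 250 before to 50 after the start of the gene, were matched for 42 of the 52 members on the build GRCm38.p6. CACGTG, which reads the same on both strands, was found in 10 of these 42 genes (23.8%), namely Eif1b, Eif3a, Eif3f, Eif3k, Eif4a1, Eif4e, Eif4g1, Eif4h, Eif5a and Eif5a2, and in 8.09% of the 27025 genes with a window. TGATGNAA, the letters bound by ATF4 when eIF2 is phosphorylated, was found in 1 of 42, Eif2s3x, and in 4.51% of all genes, both strands being searched. Of the 10 genes with CACGTG, Eif3a, Eif3f, Eif3k, Eif4a1, Eif4e and Eif5a were rhythmic in DRF, a count near the share of 48.7% among all genes. The 250 bases before the start of 3 of these are shown, CACGTG in capitals, since Eif4a1 peaked in the light phase and Eif3k and Eif3f in the dark phase. The element begins 189 bases before the start in Eif4a1, 44 in Eif3k and 68 in Eif3f. For Eif3k the start is that of the RefSeq window, just inside the gene limit of 28981890 given above. Its stretch, from 28981889, thus overlaps the edge of the gene.
Eif4a1, chr11:69672424-69672673, minus strand: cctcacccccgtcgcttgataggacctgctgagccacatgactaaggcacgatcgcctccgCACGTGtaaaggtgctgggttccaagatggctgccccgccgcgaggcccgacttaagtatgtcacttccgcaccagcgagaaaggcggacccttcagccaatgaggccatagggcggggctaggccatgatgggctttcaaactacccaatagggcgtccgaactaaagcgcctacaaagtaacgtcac
Eif3k, chr7:28981889-28982138, minus strand: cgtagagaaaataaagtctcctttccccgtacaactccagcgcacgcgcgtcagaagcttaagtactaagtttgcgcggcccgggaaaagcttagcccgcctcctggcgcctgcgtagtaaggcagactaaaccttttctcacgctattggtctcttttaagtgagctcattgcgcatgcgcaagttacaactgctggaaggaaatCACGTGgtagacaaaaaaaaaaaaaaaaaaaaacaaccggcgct
Eif3f, chr7:108934165-108934414, plus strand: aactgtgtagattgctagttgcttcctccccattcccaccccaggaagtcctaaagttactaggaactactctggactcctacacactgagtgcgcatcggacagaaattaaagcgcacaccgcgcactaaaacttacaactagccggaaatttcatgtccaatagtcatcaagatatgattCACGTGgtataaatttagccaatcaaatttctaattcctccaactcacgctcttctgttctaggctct

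Eif4e (Entrez gene 13684, chr3:138526191-138559696), the gene of the cap-binding protein that 4E-binding proteins sequester, was rhythmic in DRF with 0.46 and a peak at ZT11.5, at the end of the light phase (adjusted p = 1.2e-05). It had 148, 131, 125 and 142 CPM at ZT12 and 76.9, 104, 91.5 and 87.1 CPM at ZT24 in DRF, against 116, 126, 133 and 144 CPM at ZT12 and 116, 107, 110.4 and 115 CPM at ZT24 in NRF. The groups overlapped at ZT12 and were apart at ZT24, where Eif4e was lower in DRF by 0.32 ± 0.09 (log2, SE, adjusted p = 0.032, limma), a call lost without DRF ZT24 replicate 1 or 4 or NRF ZT24 replicate 1, 3 or 4. In NRF the fitted rhythm of 0.24 peaked at ZT14.1 and missed the threshold (adjusted p = 0.059). At equal clock time the difference missed the threshold (adjusted p = 0.10), and after moving NRF by 12 h it passed (adjusted p = 5.2e-06).

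Eif4e3, a paralog that also binds the cap, had 0.39 in DRF with a peak at ZT14.7 (adjusted p = 0.048) and 0.32 in NRF with a peak at ZT15.4 (adjusted p = 0.26). Eif4e2, which encodes a cap-binding repressor, and Eif4enif1, whose product carries eIF4E into the nucleus, had 0.034 and 0.075 in DRF and did not pass. Of the scaffolds, Eif4g2, which encodes a form without the eIF4E site, had a rhythm of 0.20 in DRF with a peak at ZT10.6 (adjusted p = 0.022), lost without DRF ZT12 replicate 1 (adjusted p = 0.055), without ZT24 (adjusted p = 0.098) and on the deposited score (adjusted p = 0.061). At ZT20 Eif4g2 had 709, 953, 971 and 1003 CPM in DRF and 1090.2, 1087, 1137 and 1107 CPM in NRF, every DRF library being lower. Eif4g1 and Eif4g3 did not pass in either regimen.

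Of the eIF2 subunit genes, 0 of 3 tested were rhythmic in DRF and 0 in NRF by limma, where 48.7% and 15.1% of all genes were. At an unadjusted p under 0.05 there were 2 in DRF and 0 in NRF, against 6821 and 3161 of all 12024 genes. Eif2s2, the β subunit, had the largest fitted value, 0.44 with a peak at ZT8.87, but an adjusted p of 0.079. It had 78.9, 203, 213 and 191 CPM at ZT20 in DRF against 225, 183, 229 and 105 CPM in NRF, and at ZT16 138, 122, 125 and 181 CPM in DRF against 187, 213, 237 and 209 CPM in NRF, the last groups not overlapping though the difference was not called. Its DRF rhythm was 0.31 without the library that stood apart (adjusted p = 0.22). Of the eIF2B subunits, which exchange the nucleotide on eIF2, 3 of 5 genes were rhythmic in DRF, near the share of 48.7% among all genes. All 3 peaked in the dark phase, between ZT14.7 and ZT17.9, and 47.6% of all genes rhythmic in DRF peaked in that phase.

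Eif2b2, the β subunit of eIF2B, had the largest rhythm of the 5, 0.37 with a peak at ZT14.7 in DRF (adjusted p = 0.0013) and 0.075 in NRF (adjusted p = 0.83), with no difference past the threshold at equal clock time (adjusted p = 0.057). At ZT12 it had 44.7, 37.1, 42.6 and 46.2 CPM in DRF and 30.9, 33.2, 27.7 and 39.2 CPM in NRF, overlapping by 1 library on each side, and was higher in DRF by 0.38 ± 0.10 (log2, SE, adjusted p = 0.027, limma). Eif2b1, the α subunit, and Eif2b5, the catalytic ε subunit, each had 0.21 in DRF with adjusted p of 0.021 and 0.049. With total scaling both calls ended, at 0.031 for Eif2b1 (adjusted p = 0.83) and 0.11 for Eif2b5 (adjusted p = 0.18).

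Among the eIF2α kinases, Eif2ak2, the double-stranded RNA sensor PKR, had the largest rhythm, 0.59 in DRF with a peak at ZT5.55 (adjusted p = 0.026). The call was lost without DRF ZT16 replicate 3 (adjusted p = 0.074) and without DRF ZT20 replicate 1 (adjusted p = 0.076). At ZT16 it had 3.70, 3.34, 2.17 and 3.2 CPM in DRF and 4.88, 5.86, 5.44 and 4.65 CPM in NRF, every DRF library being lower. Eif2ak3, the endoplasmic reticulum kinase PERK, had 0.24 in DRF with a peak at ZT20.7 (adjusted p = 0.049). Eif2ak4, the amino acid sensor GCN2, had 0.028 in DRF (adjusted p = 0.96) and 0.24 in NRF (adjusted p = 0.11). Eif2d, whose product places tRNA on the ribosome without eIF2, had 0.36 in DRF with a peak at ZT17.2 (adjusted p = 0.0014), and Eif2a did not pass.

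In the eIF5 family, Eif5, the GTPase-activating protein of eIF2, had 0.57 in DRF with a peak at ZT7.28 (adjusted p = 0.0057), and Eif5b, the GTPase that joins the ribosomal subunits, 0.61 with a peak at ZT7.87 (adjusted p = 0.0065). At ZT16 Eif5 had 146, 147, 164 and 214 CPM in DRF and 233, 267, 283 and 256 CPM in NRF, and Eif5b had 110.3, 82.4, 73.6 and 126 CPM in DRF and 149, 151, 154 and 139.5 CPM in NRF. For both genes every DRF library lay below every NRF library. Eif5a, a factor best known for helping the ribosome past stretches of proline, peaked at ZT15.0 in DRF instead (0.37, adjusted p = 0.0034).

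Of the eIF1 family, which guards start codon choice, Eif1a had 0.42 in DRF with a peak at ZT6.60 (adjusted p = 0.010) and Eif1ax 0.23 with a peak at ZT12.0 (adjusted p = 0.019). At ZT8 Eif1a had 16.5, 16.4, 14.7 and 18.9 CPM in DRF and 13.9, 15.6, 12.1 and 10.9 CPM in NRF, overlapping by 1 library on each side. That difference was not called (limma, adjusted p = 0.49). Eif1, Eif1b and Eif1ad did not pass. Eif6, which keeps the large ribosomal subunit from joining early, had 0.28 in DRF with a peak at ZT16.3 (adjusted p = 0.010), with 26.0, 29.3, 33.1 and 25.3 CPM at ZT16 in DRF and 23.3, 23.5, 25.5 and 22.7 CPM in NRF. These groups overlapped by 1 library on each side, and the difference was not called (limma, adjusted p = 0.076). The rhythm call of Eif6 was lost when libraries were scaled by total reads (0.089, adjusted p = 0.46).

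A rhythm that follows the food would be the same in both regimens once NRF is moved by 12 h, if the feeding hours are 12 h apart, which the labels do not state. The curves moved in this way differed in 22 of the 50 genes, where 45.8% of all genes did, 21 of them with the larger rhythm in DRF (33.6% of all genes) and 1, Eif5a2, with the larger in NRF (12.2%). Of the 50 genes, 21 differed at equal feeding time and not at equal clock time, 1 (Eif3a) the other way round, and 1 (Eif4a1) on both axes, with 27 on neither. Because Eif4a1 alone had a called rhythm in NRF, most of these tests set a DRF rhythm against a nearly flat curve, and a difference that misses the threshold does not show that curves are alike.

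Levels over the whole day were also compared, with ZT0 and ZT24 counted as 1 time. In DRF 12 of the 50 genes were higher on average, where 8.35% of all genes were, and 1 was lower, where 7.53% were. The median difference was 0.025 over the 50 genes and -0.0014 over all genes (log2). The higher genes were 7 of the 14 eIF3 genes (Eif3d, Eif3f, Eif3g, Eif3h, Eif3i, Eif3k and Eif3l), the eIF2B genes Eif2b1 and Eif2b4, and Eif1b, Eif2d and Eif6. Their differences were small, from 0.09 to 0.19 on the log2 scale. Eif3k was higher by 0.19 ± 0.04 (SE, adjusted p = 9.2e-04), Eif3l by 0.12 ± 0.02 (adjusted p = 0.0011) and Eif3h by 0.15 ± 0.03 (adjusted p = 0.0027), all by limma. Eif3l had 76.5, 85.6, 79.8 and 73.0 CPM at ZT16 in DRF and 66.8, 60.3, 70.2 and 65.0 CPM in NRF, and the libraries were apart at ZT0, ZT16 and ZT24. Eif6, Eif3g and Eif2d were higher by 0.14, 0.13 and 0.12 with adjusted p between 0.0095 and 0.011. Eif2ak2 was the gene that was lower, with a difference of -0.26 ± 0.08 (adjusted p = 0.023). That call was lost when ZT24 was left out, which gave 8 genes higher and 0 lower.

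These averages depend on how libraries are scaled. Scaled by total reads, the median of all genes moved by -0.070 and the split of the 50 genes became 2 higher (Eif3h and Eif3k) and 15 lower, so the higher levels are levels relative to the other transcripts. None of the 13 genes changed the sign of its difference. Among the 15 lower genes were Eif5, Eif5b, Eif4e, Eif4g1, Eif4g2 and Eif4b. With the length trend removed, 7 were higher and 1 lower. All 5 red blood cell markers and 4 of the 10 muscle fibre markers were also higher in DRF on average, where 8.35% of all genes were. The red blood cell markers summed to 262 to 1677 CPM in DRF libraries and 185 to 755 CPM in NRF libraries. None of the 7 markers each of slow fibres, adipocytes, endothelial cells, fibroblasts and immune cells passed in either direction, nor did the 5 of nerve and Schwann cells, and 1 of 5 satellite cell markers was lower. Their part in the result was not tested.

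Time by time, the regimens were furthest apart at ZT16, early in the dark phase, when 12 of the 50 genes differed and 10.8% of all genes did. The 7 higher genes (4.02% of all genes) were Eif3f, Eif3h, Eif3i, Eif3k, Eif3l, Eif2b1 and Eif2d, and the 5 lower genes (6.74%) were Eif3a, Eif4a1, Eif5, Eif5b and Eif2ak2. Eif3h had 167, 177, 185 and 169 CPM in DRF and 138, 129, 153 and 134 CPM in NRF, and Eif2d had 38.2, 44.1, 42.8 and 35.3 CPM in DRF and 29.7, 33.7, 35.2 and 33.4 CPM in NRF, neither overlapping. The higher genes differed by 0.26 to 0.36, and the lower genes by -0.59 to -0.64 except Eif4a1, with -0.23 (log2). Transcripts of a single complex stood on opposite sides at this time, Eif3a lower and Eif3k higher in DRF.

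**Figure D4:**
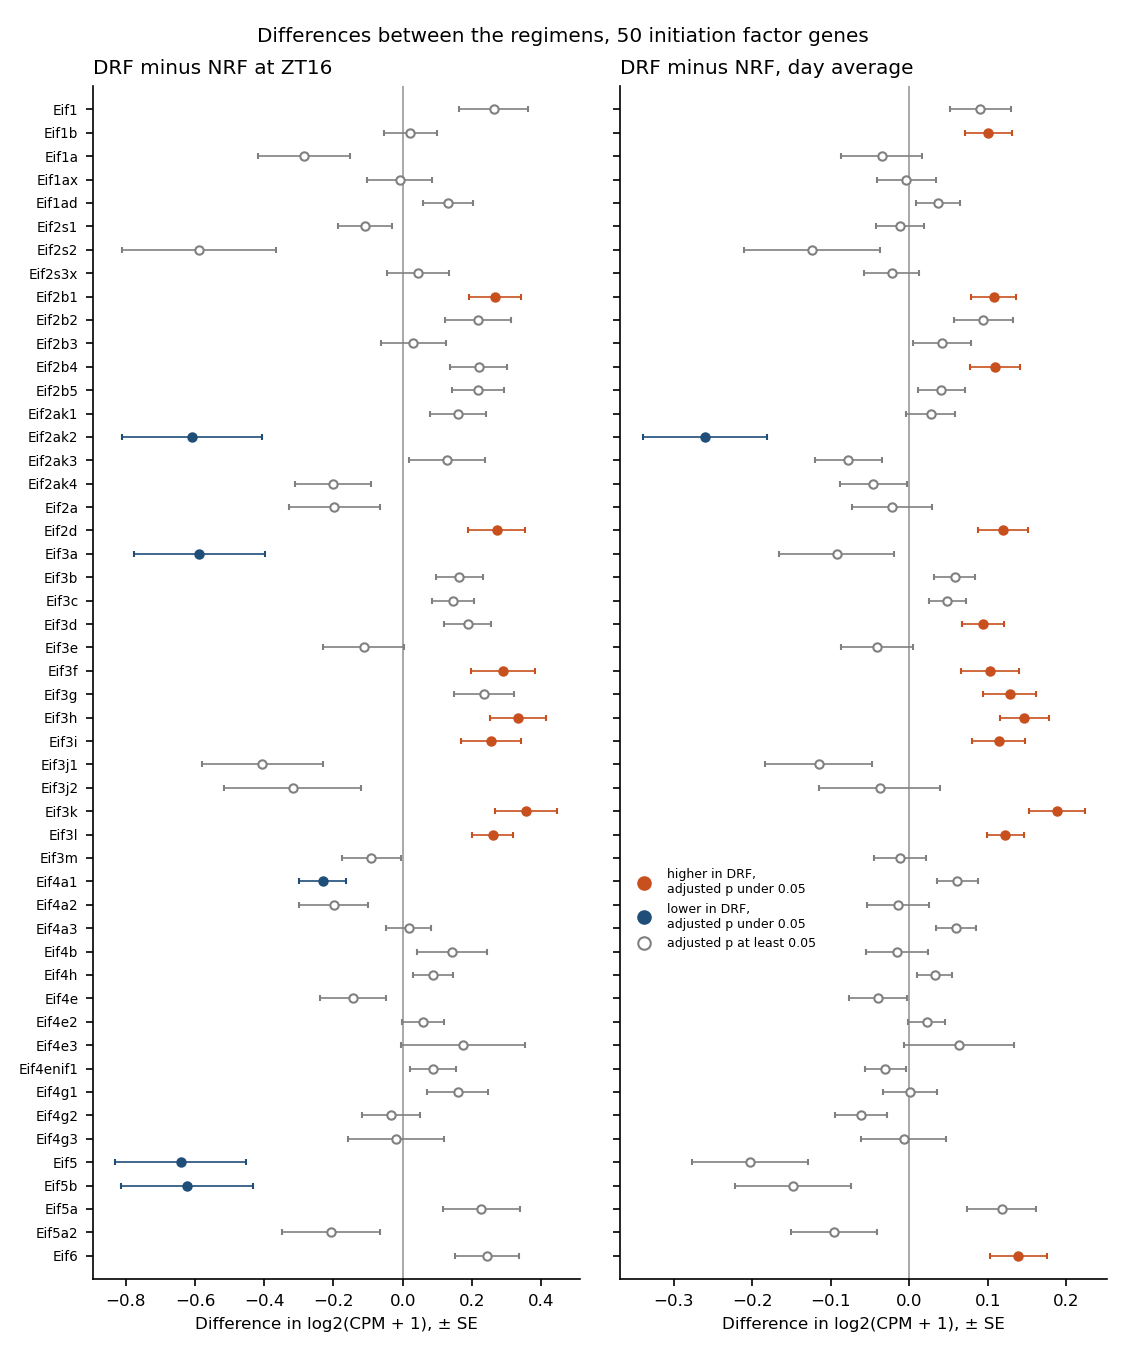
Difference between DRF and NRF in log2(CPM + 1) with its SE (x axes) for the 50 genes, at ZT16 (left) and averaged over the day (right), coloured where the adjusted p was under 0.05. At ZT16 7 genes were higher and 5 lower in DRF, and over the day 12 were higher and 1 was lower.

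The ZT16 count rests on few libraries. Without DRF ZT16 replicate 3 only Eif4a1 was called and 0.333% of all genes were, without DRF ZT16 replicate 4 there were 18, and without any other library of that time 3 to 7. Without the ZT20 library that stood apart there were 17. With scaling by total reads, under which the all-gene median shifted by -0.14 at this time, 1 gene was higher (Eif3h) and 14 were lower, and no called gene changed sign.

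At the other times few genes differed. Eif1b and Eif4a1 were higher in DRF at ZT4 (0.973% of all genes differed and 0.674% were higher), with 26.7, 27.2, 27.0 and 28.6 CPM of Eif1b in DRF and 21.8, 22.1, 22.0 and 21.9 CPM in NRF. These groups did not overlap, but the call of Eif1b was lost without any 1 library of that time, whereas that of Eif4a1 was kept. Eif4a1 alone was higher at ZT8 (0.208% differed and 0.108% were higher), and stayed so without any 1 library of that time. With total scaling 0 genes passed at ZT4 or ZT8. Eif2b2 and Eif3h were higher at ZT12 (3.5% differed and 2.15% were higher), with 0 called without any 1 of DRF ZT12 replicates 1, 3 and 4 and NRF ZT12 replicates 1 and 3. Eif4g2 was lower at ZT20 (2.96% differed and 2.25% were lower), a call lost without DRF ZT20 replicate 1, NRF ZT20 replicate 1, 2 or 3. Eif3d and Eif3l were higher and Eif4e lower at ZT24 (5.56% differed, 3.49% being higher and 2.06% lower), with 0 called without DRF ZT24 replicate 4 or NRF ZT24 replicate 4. Total scaling left 0 higher and 1 lower at ZT12 (shift of the all-gene median -0.15) and 0 higher and 3 lower at ZT24. At ZT0, 0 of 50 differed (1.85%), with 1 at an unadjusted p under 0.05, against 1562 of all 12024 genes.

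A comparison that assumes no cosine set ZT12, the end of the light phase, against ZT0 and ZT24. In DRF Eif1ax, Eif2b2, Eif4e, Eif4g2 and Eif5a were higher at ZT12, 5 of 50 where 20.5% of all genes changed in either direction and 9.52% were higher. Eif4e had the largest difference, 0.46 ± 0.08 (log2, SE, adjusted p = 4.4e-05, limma). Eif5a had 466, 355, 383 and 424 CPM at ZT12 and 341, 319.7, 255 and 352 CPM at ZT0 in DRF. The count was 2 without DRF ZT0 replicate 3, DRF ZT12 replicate 1 or DRF ZT12 replicate 4, and 3 without DRF ZT12 replicate 3 or DRF ZT24 replicate 1. With total scaling, under which the all-gene median shifted by -0.11, 2 genes were higher and 4 lower. In NRF Eif4a1 alone was higher at ZT12, by 0.20 ± 0.06 (adjusted p = 0.020), where 9.79% of all genes changed and 4.47% were higher, and it was lost without NRF ZT12 replicate 3. It was also lost with total scaling, which called 1 gene higher and 1 lower, neither of them Eif4a1.

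ZT0 and ZT24 are the same clock time on successive days and would be alike in a steady cycle. In DRF 1 of 50 genes differed between them, Eif3l, higher at ZT24 by 0.25 ± 0.06 (adjusted p = 0.039, limma), where 0.274% of all genes did and 0.108% were higher, and 18 of 50 had an unadjusted p under 0.05, as did 2283 of 12024 genes. It had 73.7, 71.0, 75.0 and 79.6 CPM at ZT24 and 66.9, 61.5, 61.0 and 60.7 CPM at ZT0, without overlap. The call was lost without DRF ZT0 replicate 2, 3 or 4 and without DRF ZT24 replicate 1, 3 or 4, each of which left 0 genes. In NRF 0 of 50 differed (0% of all genes), with 6 at an unadjusted p under 0.05, as had 934 genes. This comparison was chosen after the values were seen.

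Regulators and partners of the initiation factors were followed as lists, to be read against the 48.7% of all genes rhythmic in DRF, 15.1% rhythmic in NRF and 13.1% with a difference at equal clock time. Of 23 genes of translation control (the mTOR complexes, S6 kinases, sestrins, 4E-binding proteins and others), 11 were rhythmic in DRF and 7 in NRF. At equal clock time 0 differed by limma, and 6 had an unadjusted p under 0.05, as had 3448 of 12024 genes. On the day average 1 was higher in DRF, where 8.35% of all genes were, and 3 were lower, where 7.53% were. The lowest adjusted p of the difference were 0.060 in Sesn1, 0.070 in Ddit4 and 0.11 in Rps6kb1. Sesn1, an inhibitor of mTOR signalling, had 0.67 with a peak at ZT21.5 in DRF and 0.42 with a peak at ZT0.96 in NRF, both rhythmic. Ddit4, another inhibitor of mTOR signalling, had 0.29 in DRF (adjusted p = 0.77) and 1.68 with a peak at ZT12.4 in NRF (adjusted p = 8.7e-04). Rps6kb1, a kinase of ribosomal protein S6, had 0.73 with a peak at ZT8.50 in DRF (adjusted p = 0.0017) and 0.084 in NRF (adjusted p = 0.93). Eif4ebp1, the protein that holds eIF4E off the scaffold, was the higher gene, by 0.24 ± 0.05 (log2, SE, adjusted p = 0.0012, limma), with a mean of 56.9 ± 7.64 CPM in DRF and 42.7 ± 2.54 CPM in NRF at ZT24 (SD, n = 4 each). It was rhythmic in NRF (0.38, peak at ZT13.6, adjusted p = 0.031) and not in DRF (0.31, adjusted p = 0.075), and the difference was not past the threshold (adjusted p = 0.52).

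Of 21 other partners (among them poly(A)-binding protein, ribosome recycling, helicase and eIF2 phosphatase genes), 11 were rhythmic in DRF, 3 in NRF, and 6 differed at equal clock time, where 48.7%, 15.1% and 13.1% of all genes did. The DRF and NRF counts of these partners were near those shares. Ddx3x, an RNA helicase that helps with structured leaders, had 0.72 with a peak at ZT5.23 in DRF and 0.12 in NRF (difference, adjusted p = 0.0057), its DRF peak lying in the light phase as did those of Eif3a and Eif4a1. Dnajc3, an inhibitor of eIF2α kinases, had 0.43 with a peak at ZT7.14 in DRF and 0.18 in NRF (adjusted p = 0.010), and Bzw2, an eIF5 mimic, 0.18 in each regimen with peaks at ZT11.2 in DRF and ZT3.32 in NRF (adjusted p = 0.024). Of 12 elongation and termination genes, 10 were rhythmic in DRF and 1 in NRF, against 48.7% and 15.1% of all genes, and Eef2, the translocase, differed at equal clock time, with 0.46 and a peak at ZT19.4 in DRF and 0.13 in NRF (adjusted p = 0.030). Eef1a2, the elongation factor of mature muscle, and Etf1, the release factor, missed the threshold (adjusted p = 0.066 and 0.076).

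The authors' deposited table of rhythm tests (meta2d) lists all 52 genes in each regimen. At an adjusted p under 0.05 it calls 9 of them in DRF, where it calls 15.9% of its 16119 genes, and 0 in NRF, where it calls 7.16%. The 9 genes are Eif2b2, Eif2d, Eif3i, Eif3k, Eif4a1, Eif4a3, Eif4e, Eif5 and Eif5a, all of them among the 26 called here. For Eif4a1 in NRF the authors' deposited table gives an adjusted p of 0.0984, so the NRF rhythm of that gene depends on the method. Its phases for Eif4a1 and Eif3k in DRF are 7.42 h and 17.8 h in the authors' deposited table.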

How the data were processed

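Polyadenylated RNA was sequenced with random-primed, unstranded libraries read as pairs of 100 bases, per the labels' protocols. HISAT2, Bowtie2, RSEM, mm10 and GRCm38.p6 are named in the submitters' processing notes. The deposited expression table is headed TPM, but its values are a score, a constant times log2(1 + 1000000 × reads over library size) divided by a length, so counts were recovered by inverting it in 17442 of 19072 genes, the forward calculation giving back the deposited values to within a relative deviation of 0.000495. Levels are CPM over the library size that the scores imply, which was 0.854 to 1.21 times the recovered total. With no TPM in the table, limma 3.58.1 in R 4.3.3 was run on log2(CPM + 1) of the 12024 genes with a mean of at least 1 CPM, with Benjamini-Hochberg adjustment over them. Models were group means and a 24 h cosine per regimen. Recovery of counts, the DRF rhythm test, the clock-time difference and the day average were tried on simulated data. The simulated rhythm was larger than any of the family, and the other comparisons were not simulated. The authors' deposited rhythm tables give p-values from meta2d, used as described where they are named.

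Genes were named by a rule: the 6 with the smallest adjusted p among the calls of each rhythm test, rhythm difference and day average, the member with the largest DRF rhythm of each complex, and up to 3 partner genes per list by the adjusted p of the rhythm difference, plus Eif4ebp1. Other members are named with their roles or in full lists of calls. Outside the rule, library values are also given for Eif5, Eif5a and Eif1b, rhythm values for other members, and the promoter of Eif3f. The members and lists were chosen with earlier results of these data known. Alternatives were total scaling, another pseudocount, no low-value filter, the deposited score itself, times or libraries left out, a replicate block, removal of the length trend, and within-group components as covariates.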

Additional observations from a re-analysis of the deposited data

Results flagged for a closer look

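In 210 groups of 4 libraries (15 named genes in 14 groups), 16 had a library far from the other 3 by Dixon's test, which chance gives in about 1 in 20 groups. 3 of the 16 came from the library DRF ZT20 replicate 1, in which Eif3a had 50.3 CPM (others 121 to 130), Eif2s2 78.9 CPM (others 191 to 213) and Eif4g2 709 CPM (others 953 to 1003). These 3 genes were all low in that library, the one that stood apart over all genes, and results without it are given beside them.

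The other libraries far from their group were high or low in single genes. Eif4a1 had 118 CPM in DRF ZT8 replicate 2 (others 133 to 134) and 91.9 CPM in NRF ZT8 replicate 4 (others 97.5 to 98.1). Eif3k had 56.1 CPM in DRF ZT4 replicate 1 (others 66.7 to 67.8), 68.1 CPM in NRF ZT8 replicate 1 (others 55.9 to 56.8) and 53.7 CPM in NRF ZT12 replicate 3 (others 61.9 to 62.4). Eif2b2 had 44.9 CPM in DRF ZT20 replicate 2 (others 39.8 to 40.5). Eif2d had 26.9 CPM in DRF ZT8 replicate 3 (others 30.9) and 29.9 CPM in NRF ZT24 replicate 2 (others 33.3 to 33.8). Eif3a had 117 CPM in DRF ZT12 replicate 4 (others 127 to 128). Eif3l had 66.9 CPM in DRF ZT0 replicate 1 (others 60.7 to 61.5) and 65.7 CPM in DRF ZT8 replicate 4 (others 63.7 to 64). Eif4g2 had 844 CPM in DRF ZT24 replicate 4 (others 897 to 904) and 1098 CPM in NRF ZT12 replicate 4 (others 899 to 921).

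The rhythm itself differed between DRF and NRF at equal clock time, by the test of the difference, in Eif4a1 (adjusted p = 8.92e-07) and in Eif3a (adjusted p = 0.0174), both by limma.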

How the results depend on the processing

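Of 1365 values of single genes under the alternatives, 1346 kept direction and side of the threshold, 13 lost the threshold, 6 gained it and 0 reversed. Most of the alternatives left out only 1 of the 56 libraries, and many of the genes were chosen for a small adjusted p. The total is thus weighted towards small changes, and the settings are given one by one below. Rhythm sizes are never negative, so a reversal was possible only for differences, and shifts of the peak time were not counted as reversals. Counts below are of the 50 genes unless all genes are named, and the causes of these changes were not tested. Without single libraries the counts ranged from 20 to 29 (rhythm in DRF; all genes 4978 to 6057), 1 to 3 (rhythm in NRF; all genes 1626 to 1920), 2 to 5 (difference at equal clock time; all genes 1370 to 2207), 20 to 26 (equal feeding time; all genes 4887 to 5752) and 12 to 16 (day average; all genes 1269 to 2917). At single times they were 0 to 0 (ZT0), 1 to 2 (ZT4), 1 to 1 (ZT8), 0 to 5 (ZT12), 1 to 18 (ZT16), 0 to 6 (ZT20) and 0 to 5 (ZT24). ZT12 against ZT0 and ZT24 gave 2 to 6 in DRF and 0 to 3 in NRF, and ZT24 against ZT0 gave 0 to 3 in DRF.

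With no filter on low values the count was 1 at ZT12 and 0 at ZT20. With total scaling it was 5 for the difference at equal clock time, 3499 for the day average of all genes, 1 at ZT0, 0 at ZT4, 0 at ZT8, 1 at ZT12, 2 at ZT20, 2 for ZT12 in NRF and 0 for ZT24 against ZT0 in DRF; single genes lost were Eif6 in DRF (0.089) and Eif4a1 in NRF (0.15), and on the day average Eif3l (0.05), Eif6 (0.06), Eif3g (0.05) and Eif2d (0.04). On the deposited score it was 13 at equal feeding time, 6 for the day average, 1 at ZT4, 4 at ZT16, 1 at ZT24, 3 and 0 for ZT12 in DRF and NRF, and 0 for ZT24 against ZT0 in DRF, and Eif2d lost the day-average call (adjusted p = 0.062). Without ZT24 it was 1017 for the clock-time difference of all genes, 8 for the day average (all genes 1058), 1 at ZT12 and 0 for ZT12 in NRF, and without ZT0 it was 5 for the clock-time difference and 0 at ZT20. With the length trend removed it was 2 in NRF, 8 for the day average (all genes 1059), 1 at ZT12, 0 at ZT20 and 2 for ZT12 in NRF, and Eif3g lost the day-average call (adjusted p = 0.064). Eif4g2 lost the DRF call on the score (adjusted p = 0.061) and without ZT24 (adjusted p = 0.098).

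When 2 components of the within-group deviations were added as covariates, more genes were called, 7 in NRF (all genes 2950), 14 at equal clock time (all genes 3609), 34 at equal feeding time, 24 for the day average (all genes 4196), 1 at ZT0, 2 at ZT8, 15 at ZT12, 26 at ZT16, 10 at ZT20, 20 at ZT24, 17 and 5 for ZT12 in DRF and NRF, and 21 and 5 for ZT24 against ZT0 in DRF and NRF. These components were taken from the deviations from the group means of the same data. Adding them leaves the fitted differences and rhythms unchanged and lowers the spread they are tested against. More calls were thus built in, and these counts lend the results no weight. With the replicate number as a block the counts were 23 (DRF), 1 (NRF), 2 (clock time), 21 (feeding time), 12 (day average) and 11 (ZT16). The numbers did not pair the libraries: deviations of libraries with the same number had a mean correlation of -0.0166, against 0.0058 for other numbers, and 12 of 56 libraries correlated best with their own number. With 4 libraries a time, single-time counts rest on few libraries.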
